A study of Mus musculus with 30 samples.

Results

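Cassette exons are internal exons that are either kept in the mature mRNA or left out of it whole. RNA sequencing of mouse cells before and after RG3039, a small molecule inhibitor of the scavenger decapping enzyme Dcps, had yielded 4 deposited tables of splice junctions whose use went up. A junction was taken here when its table marked it as exon inclusion (it joins a cassette exon to a neighbour) or as exon skipping (it joins the neighbours over the exon). That rule found 291 rows of the 1866 in the 4 tables, which were 204 distinct junctions of 170 exons in 158 genes. The authors had chosen every row by its measured change, so the junction values are given as a description.

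The time course held a C57BL/6 leukemia cell line that carries the CALM/AF10 fusion (acute myeloid leukemia) and C57BL/6 granulocyte-macrophage progenitors (GMP) from normal bone marrow. Each cell type was sampled 0 h (before), 6 h and 10 h after RG3039, at 1 µM as named with the tables, with 3 samples per group. Both times were compared with the same 0 h samples, and no untreated samples of 6 h or 10 h stood beside them, so drug and time in culture cannot be told apart. Values in leukemia cells come from 1 line. Another 12 libraries, 3 each from the lines CALM/AF10 #1, CALM/AF10 #2, MLL/AF9 #1 and MLL/AF9 #2 (all C57BL/6), had no treatment time in their labels and took no part in choosing the junctions. Whether triplicates were separate cultures or animals is left unstated in the labels, so p-values cover the spread between these samples alone, which may be technical.

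Dcps removes the cap that is left over when mRNA has been degraded from its tail, and free cap can compete with capped RNA for cap-binding proteins. The nuclear cap-binding complex sits on new transcripts while they are spliced. Many genes for splicing factors, SR proteins above all, carry a cassette exon with an in-frame stop codon, a poison exon. A transcript that keeps it is usually removed by nonsense-mediated decay, and SR proteins tune their own levels through it.

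The sequences below carry the pattern described further on. In each, the capitals mark the stop codon met when the exon is read in the frame of the annotated coding transcript around it. The first 8 belong to exons skipped more in GMP, and the last 4 to exons included more in CALM/AF10 cells (Fam117a in both cell types). Bases come from GENCODE M21 transcripts on GRCm38 (mm10), written in the direction of the transcript.
Srsf3, first bases of the 456 nt exon (chr17:29039454-29039909, plus strand): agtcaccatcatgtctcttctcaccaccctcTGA
Srsf7, first bases of the 460 nt exon (chr17:80204622-80205081, minus strand): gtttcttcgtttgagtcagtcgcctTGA
Tra2a, first bases of the 306 nt exon (chr6:49252803-49253108, minus strand): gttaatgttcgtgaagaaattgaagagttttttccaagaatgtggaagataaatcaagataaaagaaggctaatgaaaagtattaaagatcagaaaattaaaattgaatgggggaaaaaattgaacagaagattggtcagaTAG
Tra2b, first bases of the 276 nt exon (chr16:22258986-22259261, minus strand): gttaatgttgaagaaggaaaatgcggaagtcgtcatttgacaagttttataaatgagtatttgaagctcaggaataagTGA
Rbm39, first bases of the 73 nt exon (chr2:156178880-156178952, minus strand): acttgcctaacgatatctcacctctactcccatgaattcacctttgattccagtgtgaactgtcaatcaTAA
Rbm39, first bases of the 55 nt exon (chr2:156176403-156176457, minus strand): agctcaaagtgcttcaTAA
Snrnp70, first bases of the 1360 nt exon (chr7:45381825-45383184, minus strand): ccaccacgcagctggcttgcagcTGA
Rsrc2, first bases of the 75 nt exon (chr5:123735822-123735896, minus strand): ttctcacagtgtaaccTGA
Rps6ka3, first bases of the 37 nt exon (chrX:159279167-159279203, plus strand): gataaaTGA
Dpy19l4, first bases of the 33 nt exon (chr4:11319786-11319818, minus strand): ttgtgaagttcgatgaacaaTGA
Nol12, first bases of the 91 nt exon (chr15:78935809-78935899, plus strand): caaactcaggaacagcagagatTAG
Fam117a, first bases of the 189 nt exon (chr11:95355666-95355854, plus strand): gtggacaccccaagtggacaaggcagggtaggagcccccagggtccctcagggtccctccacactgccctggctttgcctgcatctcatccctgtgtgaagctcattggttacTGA

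Cassette exons whose length is a multiple of 3 and that hold no stop codon keep the reading frame. These examples are shown whole, without capitals, the first 2 from exons included more in CALM/AF10 cells and the last 2 from exons skipped more in GMP.
Hnrnpd, whole 57 nt exon (chr5:99976534-99976590, minus strand): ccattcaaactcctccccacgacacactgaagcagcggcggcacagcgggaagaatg
Stx16, whole 12 nt exon (chr2:174084646-174084657, plus strand): gagctggacgag
Incenp, whole 12 nt exon (chr19:9883192-9883203, minus strand): tgcagctttgtt
Map2k7, whole 48 nt exon (chr8:4240688-4240735, plus strand): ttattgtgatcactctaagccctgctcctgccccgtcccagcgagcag

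Each junction came with its percent spliced in (PSI), the share of the reads at 1 named end of the junction that used it, as a group mean in whole percent. No values per sample were used for PSI, and the tables list only junctions with a q-value under 0.05 whose PSI odds went up. The members closest to that limit were Setd8 (q = 0.0491) and Prdm4 (q = 0.0477) in the authors' deposited tables, and none are listed outside it. Gene levels came as TPM, a measure scaled to length that adds up to the same total in every sample, so time course depth cannot be given. Estimated reads per library of the 4 lines ran from 8739673 to 25194822. All 15 fixed GMP markers stood at 1 TPM or more in untreated GMP, and their summed level went from 21626 to 22540 TPM at 0 h to 11544 to 12194 TPM at 10 h. In CALM/AF10 cells the 7 HOXA program markers summed to 407 to 424 TPM, against 68.2 to 72.5 TPM in GMP, and the 7 late neutrophil markers to 61494 to 64588 TPM, against 8918 to 11510 TPM. Other marker sums also differed in GMP. The 5 macrophage markers summed to 22.6 to 26.1 TPM at 0 h, 44.4 to 45.8 TPM at 6 h and 39.1 to 39.8 TPM at 10 h. The 7 mast cell, basophil and eosinophil markers summed to 348 to 431 TPM at 0 h and 207 to 234 TPM at 10 h, and the 8 erythroid markers to 31.3 to 42.3 TPM and 16.2 to 19.6 TPM. These sums stand beside every GMP result below, and their part in it was not tested. Dcps itself had 14.7, 16.7 and 14.9 TPM in CALM/AF10 cells at 0 h and 18.2, 18.3 and 19.9 TPM at 10 h (log2 change 0.27, limma adjusted p = 0.0255), a call lost without 0 h sample a (0.24) or c (0.25) or 10 h sample b (0.29) or c (0.23). In GMP Dcps did not pass.

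The lists leaned to inclusion in the leukemia cells and to skipping in GMP, there by little at 6 h and more at 10 h. In CALM/AF10 cells inclusion made up 70 of 82 cassette junctions at 6 h (85.4%) and 93 of 115 at 10 h (80.9%), counted in the authors' deposited tables. In GMP, skipping made up 16 of 31 at 6 h (51.6%) and 48 of 63 at 10 h (76.2%). An included exon can give a junction at each of its sides, which raises the inclusion counts. Counted by exons, inclusion and skipping held 49 and 11 at 6 h and 67 and 21 at 10 h in CALM/AF10 cells. In GMP they held 11 and 15 at 6 h and 13 and 48 at 10 h. The typical CALM/AF10 inclusion junction went from a median PSI of 13% to 31% at 6 h and from 29% to 50% at 10 h, per the authors' deposited tables. For GMP skipping junctions the medians in the authors' deposited tables were 47.5% before and 70% at 6 h, and 52% before and 70.5% at 10 h. CALM/AF10 skipping junctions stood lower, at 17% before and 32% at 6 h, and 16% before and 33% at 10 h, while GMP inclusion junctions went from 11% to 36% and from 19% to 39% (medians in the authors' deposited tables). The difference between cell types has no test, because the tables hold no values per sample. Relative to PSI and TPM, junctions in the GMP 10 h table had a median of 1.64 times as many reads as at 0 h (quartiles 1.48 and 1.83), against 1.01 in GMP at 6 h, 0.977 in CALM/AF10 at 6 h and 1.09 at 10 h. The part of these extra reads in the longer GMP list of 10 h was not tested.

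**Figure D1:**
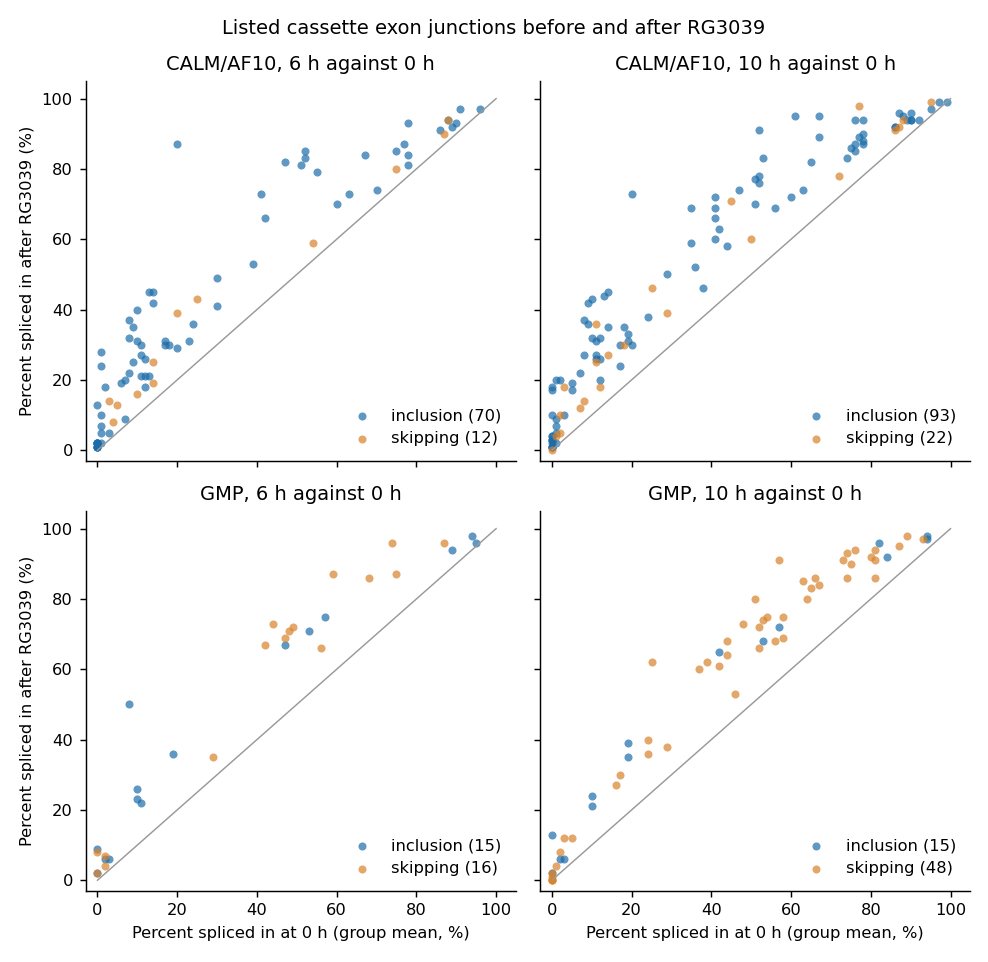
Percent spliced in of every listed cassette junction at 0 h (horizontal, %) and after RG3039 (vertical, %), 1 panel per table, with inclusion junctions in blue, skipping junctions in orange and the line of no change in grey. Blue points fill the CALM/AF10 panels (70 and 93 junctions) and orange points the GMP panel of 10 h (48 junctions); all lie on or above the line because only junctions that went up are listed.

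Among the exons CALM/AF10 cells included more, the steepest was a 37 nt exon of Rps6ka3, the ERK pathway kinase RSK2, which carries a stop codon just after its start. Its junction went from a PSI of 20% to 87% at 6 h and 73% at 10 h in the authors' deposited tables, on mean raw counts of 26 before, 30 and 40. GENCODE M21 also places this exon in the 5′ untranslated region of another coding transcript of the gene. Rps6ka3 stood at 23.7, 18.2 and 23.8 TPM at 0 h, 15.6 to 18.2 TPM at 6 h, and 17.4, 16.0 and 13.6 TPM at 10 h. All 10 h samples lay below the 0 h samples, while the 6 h samples overlapped with the lowest of them. The gene fell at 10 h (log2 change -0.46, SE 0.12, limma adjusted p = 0.0261) but did not pass at 6 h (adjusted p = 0.124). The 10 h call was lost without 0 h sample a (log2 change -0.40) or c (-0.39), without 10 h sample b (-0.48) or c (-0.36), and without the filter on low values (adjusted p = 0.0731). As in every bulk measurement here, fewer cells of a type and less RNA per cell cannot be told apart.

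Fam117a used a junction into a 189 nt exon with a stop more in both cell types. Only 1 flanking junction of this exon was listed, and no annotated transcript holds both. Its far boundary and its stop therefore rest on an annotated exon. In CALM/AF10 cells the junction went from 1% to 28% at 6 h (mean raw counts 3 and 5), and in GMP from 0% to 9% at 6 h and 13% at 10 h (counts 1, 4 and 5), per the authors' deposited tables. The level of the gene fell in both. CALM/AF10 cells held 20.1, 19.3 and 17.5 TPM at 0 h, 2.13, 1.51 and 1.98 TPM at 6 h, and 1.61, 2.00 and 1.46 TPM at 10 h. GMP held 66.3, 61.3 and 57.4 TPM at 0 h, 13.7, 15.0 and 13.1 TPM at 6 h, and 9.46, 9.62 and 9.32 TPM at 10 h. No treated sample came up to an untreated one in either cell type. Fam117a fell by 2.80 on the log2 scale at 6 h and by 2.90 at 10 h in CALM/AF10 cells (SE 0.11 each, limma adjusted p = 1.18e-06 and 6.63e-07). In GMP it fell by 2.07 and 2.58 (adjusted p = 1.06e-07 and 2.69e-08).

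Other stop-carrying exons were included more in CALM/AF10 cells while the gene rose or did not pass the test. A 33 nt exon of Dpy19l4 went from a PSI of 8% to 37% at both times in the authors' deposited tables, on 5 reads before and 36 and 34 after. Dpy19l4 stood at 3.80, 3.02 and 3.72 TPM at 0 h and 4.26, 4.36 and 4.37 TPM at 6 h, without passing (limma adjusted p = 0.192). Tial1 encodes TIAR, an RNA-binding splicing regulator, and its 60 nt exon went from 12% to 26% at 6 h and 32% at 10 h in the authors' deposited tables (31, 69 and 94 reads). In GENCODE M21 this exon also lies in the 5′ untranslated region of another coding transcript. The level of Tial1 overlapped between groups, at 24.8, 28.1 and 29.1 TPM before and 27.7, 26.6 and 28.3 TPM at 10 h. In Nol12, which encodes a nucleolar RNA-binding protein, a 91 nt exon went from 1% to 7% at both times in the authors' deposited tables. As for Fam117a, only 1 flanking junction of it was listed, and no annotated transcript holds both. Nol12 rose from 34.7, 40.8 and 42.2 TPM to 50.9, 55.9 and 56.7 TPM at 10 h (log2 change 0.47, limma adjusted p = 0.00658), so the junction into its stop-carrying exon and its level went up together. At low levels of use, the exon of Cmpk1, a pyrimidine nucleotide kinase, went from 0% to 2% and 3%, and that of Sirpa, the myeloid receptor for CD47, from 0% to 2% at both times, per the authors' deposited tables.

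Setd8, the enzyme that places a single methyl group on histone H4 lysine 20, had 2 junctions into a 116 nt exon at 6 h, which went from 39% to 53% and from 8% to 22% in the authors' deposited table. Setd8 fell at 6 h, from 83.5, 86.0 and 87.4 TPM to 60.4, 65.5 and 61.7 TPM (log2 change -0.45, SE 0.09, limma adjusted p = 0.0124). Its 10 h samples spread from 64.4 to 87.8 TPM and did not pass (adjusted p = 0.203). At 10 h the table added an exon of Msl3, part of a histone acetyltransferase complex (19% to 33%), of the adhesion receptor gene Ceacam1 (41% to 60%), of the ubiquitin ligase genes Chfr (19% to 31%) and Znrf1 (3% to 10%), all from the authors' deposited table. Only 1 flanking junction of the Znrf1 exon was listed, and no annotated transcript holds both. Nol12, Cmpk1, Sirpa, Ceacam1, Chfr and Znrf1 were chosen for the text after their values were seen.

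Many exons that CALM/AF10 cells included more lay outside a frame that could be read. Of the 81 exons in 78 genes, 20 lay in 5′ untranslated regions only and 16 spanned untranslated and coding sequence. Of the 81, 24 fell inside the reading frame of an annotated coding transcript that skips them, and were read there. Of these 24, 13 brought an early stop, meaning one more than 50 bases before the last junction. Other exons could be read only by leaving them out of a transcript that holds them, and are not among the 24. Zfp362, a zinc finger gene, had its 126 nt exon with the start codon at 52% before, 85% at 6 h and 76% at 10 h in the authors' deposited tables, although the mean raw count went down from 141 to 83 and 92. Zfp362 fell from 53.5, 54.0 and 58.2 TPM to 23.9, 25.4 and 25.8 TPM at 6 h (log2 change -1.11, SE 0.06, limma adjusted p = 6.80e-06).

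Regulators of RNA were among these exons. The start codon exon of Hnrnpr, an hnRNP gene, went from 41% to 73% and 72% in the authors' deposited tables, on 83, 145 and 165 reads. GENCODE M21 also has coding transcripts of Hnrnpr without this exon, and in the one read the start codon lies after it. Hnrnpr rose at 10 h (from 33.9, 38.7 and 37.6 TPM to 48.9, 47.7 and 59.0 TPM, log2 change 0.48, SE 0.08, limma adjusted p = 0.00324) and did not pass at 6 h (adjusted p = 0.0685). Hnrnpd encodes AUF1, which binds AU-rich elements, and the junction of its 57 nt exon went from 63% to 73% and 74% in the authors' deposited tables (1202, 1393 and 1764 reads). A 54 nt exon of Hnrnpk stood at 0% and then 1%, and a 133 nt exon of Clk2, a kinase of SR proteins, at 0% and then 4% at 10 h, per the authors' deposited tables. Edc3, an enhancer of mRNA decapping, took up a 96 nt exon of its 5′ untranslated region from 1% to 24% and 20% in the authors' deposited tables, but on 1, 13 and 12 reads.

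An exon of Cyld, the deubiquitinase that restrains NF-κB, went from 13% to 45% and 44%, and a 12 nt exon of the SNARE gene Stx16 from 42% to 66% and 63%, in the authors' deposited tables. Stx16 rose from 71.4, 53.0 and 60.3 TPM to 87.1, 101 and 81.7 TPM at 6 h (log2 change 0.54, limma adjusted p = 0.00918) and 101, 96.6 and 94.7 TPM at 10 h. Exons of Rnf214 (51% to 81% and 77%) and Lrrc14 (10% to 40% and 43%) moved at both times in the authors' deposited tables. At 10 h, Xiap, the caspase inhibitor gene, included its start codon exon at 95% against 61% before, on 49 reads in both groups, and Slfn4 went from 52% to 91%, per the authors' deposited table. Xiap fell at 10 h, from 13.3, 11.7 and 15.5 TPM to 9.31, 9.83 and 7.43 TPM (log2 change -0.56, limma adjusted p = 0.0393), a call lost without 0 h sample a (-0.56) or c (-0.46), 6 h sample c (-0.56), or any of the 10 h samples (-0.59, -0.63 and -0.45), without the filter (adjusted p = 0.106), centred on the median gene (0.0539) and with quantile normalization (0.0522).

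Skipping was the smaller class in CALM/AF10 cells, with 28 exons in 28 genes. The 126 nt exon of Ensa, an inhibitor of the mitotic phosphatase PP2A-B55, was skipped at 14% before and 25% and 27% after, per the authors' deposited tables. Skipping of a 118 nt exon in the 5′ untranslated region of Prr13 went from 75% to 80% at 6 h, and from 72% to 78% at 10 h against the other end, in the authors' deposited tables. Skipping of a 1049 nt exon of Mbnl1, a splicing regulator, went from 54% to 59% at 6 h in the authors' deposited table. Larger shares on fewer reads were those of Tnk2, a tyrosine kinase gene (77% to 98%), and Mtif2, a mitochondrial translation initiation factor (45% to 71%), both at 10 h in the authors' deposited table. Skipping of 3 exons brought a stop, since their length is no multiple of 3. These were a 34 nt exon of Ptbp1, the polypyrimidine tract-binding splicing repressor (4% to 8% at 6 h), and exons of Tmem180 (18% to 30%) and Hnrnpul2 (8% to 14%) at 10 h, per the authors' deposited tables. Hnrnpul2 was chosen for the text after its values were seen.

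Ptbp1 fell at 6 h in CALM/AF10 cells, from 293, 279 and 283 TPM to 249, 232 and 228 TPM (log2 change -0.27, SE 0.06, limma adjusted p = 0.0207). That call was lost without 0 h sample a (log2 change -0.25) or c (-0.27), without 6 h sample b (-0.26) or c (-0.24), without the filter (adjusted p = 0.0561) and with values centred on the median gene (adjusted p = 0.0914). Tmem180 fell from 71.3, 92.7 and 90.4 TPM to 41.4, 49.4 and 38.6 TPM at 6 h and 47.6, 49.4 and 51.3 TPM at 10 h (log2 change -0.96 and -0.76, limma adjusted p = 0.000554 and 0.00144). Tnfrsf13b, the TACI receptor gene, had a junction over a 177 nt exon at 5% and then 13% at 6 h that the authors' deposited table predicts to cause decay. It fell from 53.9, 50.6 and 46.9 TPM to 31.9, 33.0 and 34.4 TPM at 6 h (log2 change -0.59, limma adjusted p = 0.000727).

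The exons skipped more in GMP included poison exons of splicing factor genes. Of 52 skipped exons in 48 genes, 14 are annotated only in transcripts marked for decay, against 3 of 81 among the exons CALM/AF10 cells included more. Inside the frame of an annotated coding transcript that skips them, 35 of the 52 could be read. Of these, 21 (60%) brought an early stop, 17 within the exon and 4 further down. For the exons CALM/AF10 cells included more, that share was 13 of 24 (54.2%). Over all exons of each class, such a stop was read in 40.4% of the 52 and 16.0% of the 81. Skipping of the 456 nt exon of Srsf3 went from 59% to 87% at 6 h, and that of the 460 nt exon of Srsf7 from 44% to 73% at 6 h and 68% at 10 h, per the authors' deposited tables. Both genes encode SR proteins. The Tra2 genes, which encode SR-like activators of splicing, did the same, Tra2b from 48% to 71% and 73%, and Tra2a from 39% to 62% at 10 h, in the authors' deposited tables. For Rbm39, which encodes a U2AF-related factor, skipping of a 73 nt exon went from 49% to 72% at 6 h and, against the other end, from 65% to 83% at 10 h, per the authors' deposited tables. A second poison exon of Rbm39, of 55 nt, was skipped at 94% against 81% at 10 h in the authors' deposited table.

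The U1 particle was represented as well. Skipping of a 1360 nt exon of Snrnp70, the U1-70K gene, went from 75% to 87% and 90%, and skipping of a 71 nt exon of Luc7l, a U1-associated factor, from 57% to 91% at 10 h, in the authors' deposited tables. Rsrc2, an SR-related gene, skipped its 75 nt exon at 74% before, 96% at 6 h and 93% at 10 h, and its 93 nt exon, which another coding transcript has in its 5′ untranslated region, at 81% before and 91% at 10 h, in the authors' deposited tables. Other genes of RNA metabolism with a skipped stop exon at 10 h were Thrap3 (89% to 98%), the nuclear exosome adaptor gene Rbm7 (80% to 92%) and the exosome nuclease gene Dis3 (87% to 95%), from the authors' deposited table. Outside RNA metabolism stood Prdm4, a zinc finger gene (76% to 94%), and Nrg1, the neuregulin gene (25% to 62%), also at 10 h in the authors' deposited table. Reads over the Nrg1 exon went from 5 to 128 there. Thrap3, Rbm7, Dis3 and Prdm4 were chosen for the text after their values were seen.

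**Figure D2:**
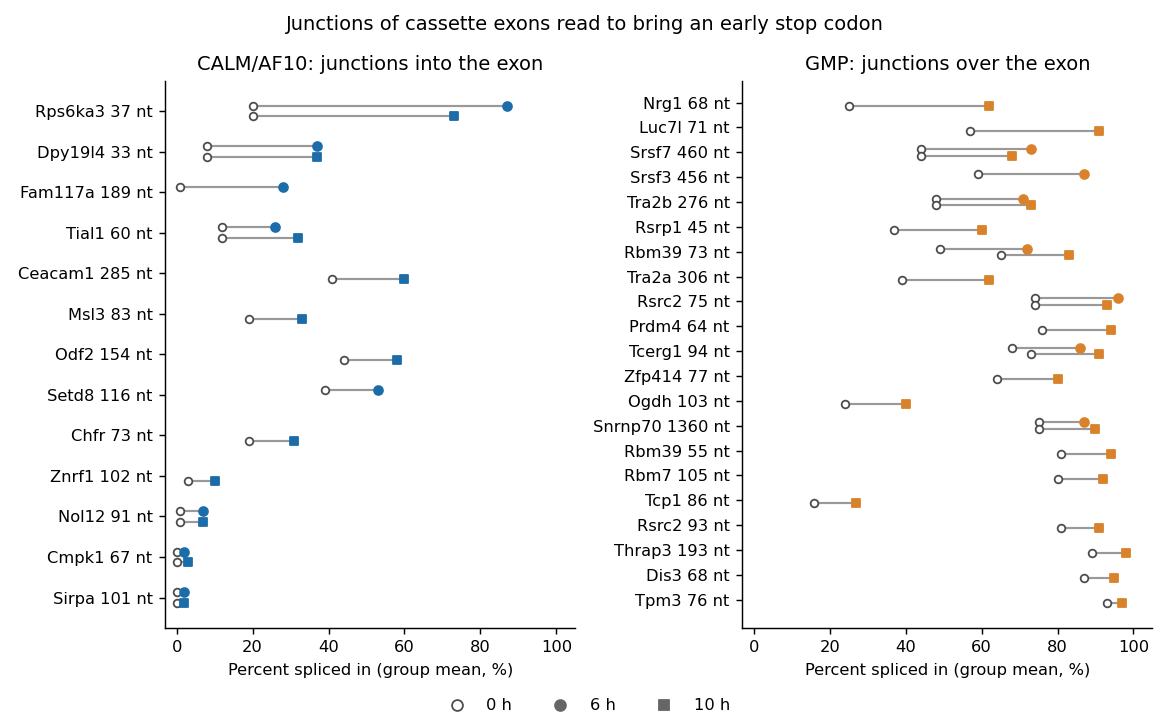
Percent spliced in (%) of junctions whose cassette exon was read to bring an early stop codon, with inclusion junctions of CALM/AF10 cells on the left and skipping junctions of GMP on the right. Open circles stand for 0 h, filled circles for 6 h and squares for 10 h, and a line joins each pair; the stop-carrying exon of Rps6ka3 went from 20% to 87% on the left, while skipping of that of Srsf3 went from 59% to 87% on the right.

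Levels of these GMP genes moved in both directions. Srsf7 rose at 6 h, from 31.3, 33.1 and 31.3 TPM to 40.3, 41.5 and 38.8 TPM (log2 change 0.32, SE 0.05, limma adjusted p = 0.00126). At 10 h it held 36.1, 35.5 and 37.4 TPM, higher by 0.18 (limma adjusted p = 0.0226). That call was lost without 0 h sample a (log2 change 0.17) or c (0.17), without 10 h sample a (0.19) or c (0.16), and with quantile normalization (0.073). Luc7l rose from 16.7, 17.0 and 17.3 TPM to 21.4, 20.3 and 21.7 TPM at 6 h and 22.2, 19.5 and 21.1 TPM at 10 h (log2 change 0.30 and 0.28, limma adjusted p = 0.00598 and 0.00737). In both genes every treated sample stood above every untreated one.

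Rbm39 went the other way, from 229, 261 and 221 TPM to 154, 159 and 147 TPM at 6 h and 170, 160 and 173 TPM at 10 h. It fell at both times (log2 change -0.62 and -0.50, SE 0.07, limma adjusted p = 0.000104 and 0.000374), with no overlap between groups. Tra2a fell at 10 h, from 49.4, 47.4 and 44.2 TPM to 35.6, 33.3 and 37.8 TPM (log2 change -0.39, SE 0.07, limma adjusted p = 0.00121). Srsf3 and Tra2b passed at neither time. Srsf3 stood at 55.3, 60.3 and 48.8 TPM before and 51.8, 49.2 and 54.3 TPM at 6 h, and Tra2b at 83.2, 92.2 and 76.8 TPM before and 74.2, 67.8 and 76.6 TPM at 6 h. Snrnp70 fell at 6 h from 308, 326 and 288 TPM to 258, 272 and 260 TPM (log2 change -0.22, limma adjusted p = 0.0139) and held 328, 307 and 337 TPM at 10 h (adjusted p = 0.318). Dis3 rose from 14.1, 12.5 and 13.1 TPM to 25.4, 22.9 and 24.8 TPM at 6 h (log2 change 0.83, limma adjusted p = 2.00e-05). Nrg1 rose from 16.1, 13.3 and 11.7 TPM to 39.9, 43.1 and 46.7 TPM at 6 h and 74.5, 61.8 and 66.9 TPM at 10 h (log2 change 1.60 and 2.23, limma adjusted p = 8.20e-06 and 8.93e-07).

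**Figure D3:**
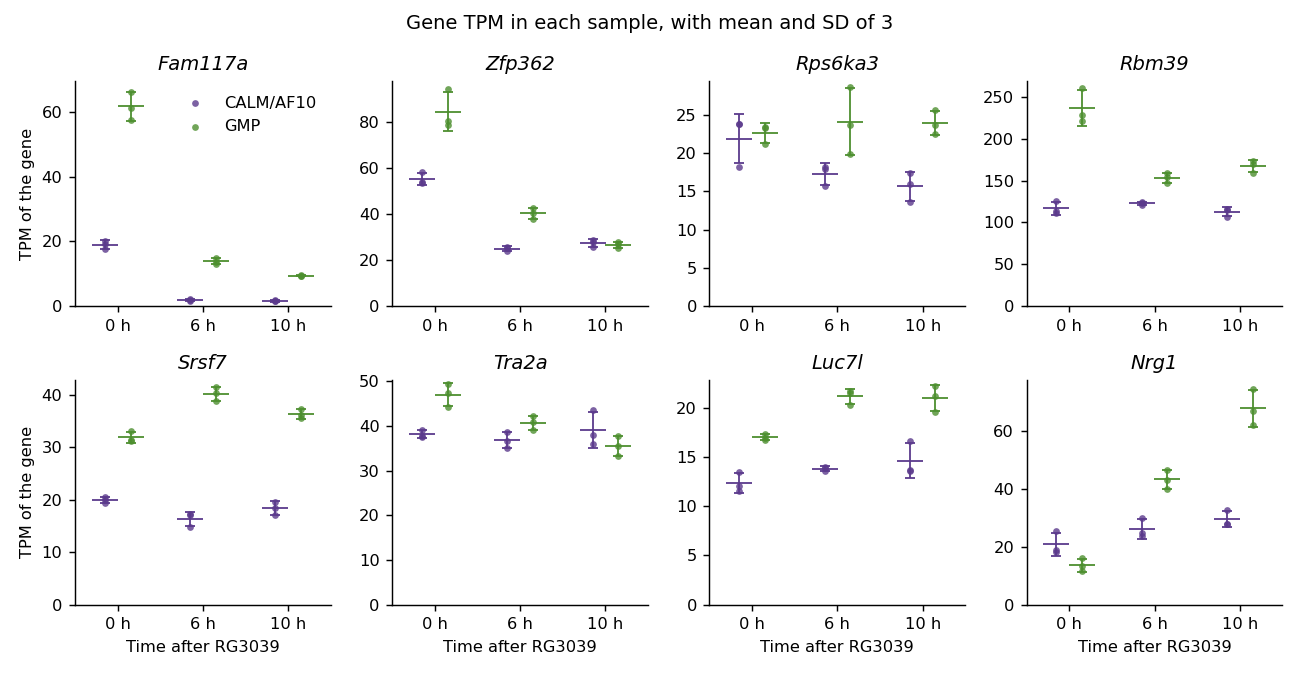
TPM of 8 genes with a cassette junction in every sample (points) at 0, 6 and 10 h, with mean and SD of 3 samples, CALM/AF10 cells in purple and GMP in green. Fam117a and Zfp362 are lower after RG3039 in both cell types, Rbm39 is lower in GMP samples (147 to 173 TPM against 221 to 261 TPM before), and Nrg1 in GMP reaches 61.8 to 74.5 TPM at 10 h.

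GMP also skipped exons that keep the frame or sit outside it. A 12 nt exon of Incenp, a chromosomal passenger gene, was skipped at 42% before, 67% at 6 h and 61% at 10 h, and a 48 nt exon of Map2k7, a kinase upstream of JNK, at 47% and then 69% at 6 h, in the authors' deposited tables. Incenp fell from 53.7, 56.3 and 53.6 TPM to 39.1, 39.1 and 38.8 TPM at 6 h (log2 change -0.47, SE 0.05, limma adjusted p = 6.29e-05). Ptbp1 skipped a 78 nt exon, a different one from that in CALM/AF10 cells, at 56% before, 66% at 6 h and 68% at 10 h, on 870, 835 and 1964 reads in the authors' deposited tables. Ptbp1 itself fell at 6 h from 563, 560 and 535 TPM to 450, 451 and 441 TPM (log2 change -0.30, limma adjusted p = 0.000496) and rose at 10 h to 603, 621 and 641 TPM (log2 change 0.17, limma adjusted p = 0.0117). The rise was lost without 10 h sample c (log2 change 0.15) and turned to -0.052 with quantile normalization. Skipping of an exon of Rbm25 went from 58% to 75%, of Hnrnpf from 17% to 30% and of Prrc2b from 51% to 80% at 10 h, in the authors' deposited table.

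Inclusion in GMP covered 19 exons in 17 genes. Besides Hnrnpd and Fam117a, an exon of Cd47, the gene of the signal that SIRPα reads, went from 47% to 67% at 6 h, and one of the tyrosine kinase gene Syk from 42% to 65% at 10 h, in the authors' deposited tables. Syk fell from 31.7, 35.7 and 33.1 TPM to 25.8 TPM or less in each 10 h sample (log2 change -0.38, limma adjusted p = 0.000691). Ogdh, a citric acid cycle enzyme gene, included a 91 nt exon at 19% before, 36% at 6 h and 39% at 10 h. It skipped a 103 nt exon at 24% before and 40% at 10 h, both in the authors' deposited tables. Each of these exons was read into the coding transcript that holds the other, and a stop was met there. A swap of 1 exon for the other was not read.

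The exons were also grouped by the form that carries the stop. In CALM/AF10 cells 15 of 109 exons moved toward the form with the early stop and 9 away from it, with 1 (Msl3) having a stop in both forms and 84 with none read. In GMP 3 of 71 moved toward it and 23, in 21 genes, away from it, with 1 (Tcp1) in both forms and 44 with none. Ogdh counts on both sides, toward by its 91 nt exon and away by its 103 nt exon, each read beside the other. Some counted exons lie in the 5′ untranslated region of another annotated coding transcript, as in Rps6ka3, Tial1 and the 93 nt exon of Rsrc2. In that transcript the exon lies before the start codon, so these counts are not of poison exons alone. At 6 h the counts toward and away were 9 and 4 of 60 exons in CALM/AF10 cells and 3 and 9 of 26 in GMP. At 10 h they were 12 and 7 of 88 and 2 and 20 of 61. Of the 21 GMP genes that moved away, 8 are on the fixed list of splicing regulators, among them Luc7l, Rbm39, Snrnp70, Srsf3, Srsf7, Tra2a and Tra2b. Ptbp1 and Tial1 were the regulators among the 15 CALM/AF10 genes that moved toward it. Tcp1 was chosen for the text after its values were seen.

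**Figure D4:**
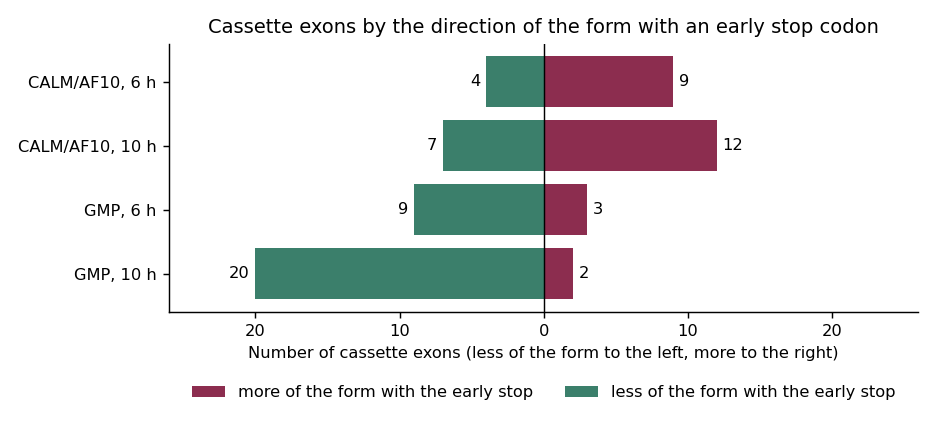
Number of cassette exons in each deposited comparison whose listed junction raises (right) or lowers (left) the form that carries an early stop codon, as read from GENCODE M21. Some of these exons lie in the 5′ untranslated region of another annotated coding transcript. The bars lean right in CALM/AF10 cells (9 against 4 at 6 h, 12 against 7 at 10 h) and left in GMP (3 against 9, and 2 against 20).

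The authors' own prediction of decay concerns the listed junction. It was true for 29 inclusion rows in 12 CALM/AF10 genes in the authors' deposited tables, and an early stop was read here in 10 of them. In the others, Map2k4 and Nptn, the exon read open. It was true for skipping rows of 4 CALM/AF10 genes, and a stop was read in Hnrnpul2, Ptbp1 and Tmem180 but not in Tnfrsf13b. In GMP it was true for Fam117a and for a junction of Mpo, the myeloperoxidase gene, at a PSI of 0% before and after. Inclusion rows of 66 CALM/AF10 genes were predicted not to cause decay in the authors' deposited tables. An early stop was read here in 4 of these genes, among them Ceacam1, Chfr and Setd8. Setd8 had rows of both kinds. The inclusion rows of Ogdh in GMP were also predicted not to cause decay, although a stop was read. For 61 GMP skipping rows the authors' deposited tables predict no decay. Those include the poison exons above, because a junction that leaves such an exon out belongs to the productive form.

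Both cell types shared 12 genes with a cassette junction. Hnrnpd included the 57 nt exon shown above in both. In GMP its junction went from 57% to 75% at 6 h and 72% at 10 h in the authors' deposited tables, against 63% to 73% and 74% in CALM/AF10 cells. The gene rose in GMP, from 267, 227 and 195 TPM to 328, 306 and 306 TPM at 6 h (log2 change 0.46, SE 0.11, limma adjusted p = 0.00941), and did not pass in CALM/AF10 cells, at 257, 239 and 241 TPM before and 226, 227 and 241 TPM after (adjusted p = 0.374). The change differed between cell types (CALM/AF10 minus GMP -0.54, SE 0.13, limma adjusted p = 0.00426). A 45 nt exon of Ociad1, in the 5′ untranslated region, went from 10% to 31% in CALM/AF10 cells and from 10% to 26% in GMP at 6 h, in the authors' deposited tables. Ociad1 rose in both, by 0.43 on the log2 scale in each at 6 h (adjusted p = 0.000248 in CALM/AF10 cells and 0.00145 in GMP, limma). An exon of Msantd3 went from 9% to 35% and from 8% to 50% on few reads (6 to 17 and 4 to 13) in the authors' deposited tables.

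The same exon went opposite ways in 2 genes. A 120 nt exon of Hnrnpa2b1 was included more in CALM/AF10 cells at 6 h (78% to 81%) and skipped more in GMP (29% to 35% at 6 h and 38% at 10 h), in the authors' deposited tables. A 215 nt exon in the 5′ untranslated region of Tmbim6, which encodes an inhibitor of cell death in the endoplasmic reticulum, was skipped more in CALM/AF10 cells (87% to 90% and 92%) and included more in GMP (0% to 2% at 6 h), in the authors' deposited tables. Skipping of the Rsrc2 exon of 93 nt and of the Prr13 exon went up in both cell types, and a B2m junction was listed at 0% before and after in both, per the authors' deposited tables. Counted over junctions, 7 inclusion junctions were shared, which is 6.36% of 110 in CALM/AF10 cells and 31.8% of 22 in GMP. For skipping 3 were shared, 10.3% of 29 and 5.66% of 53.

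Between 6 h and 10 h the lists overlapped more, though both times share their 0 h samples. Of the CALM/AF10 inclusion junctions 53 were in both lists, 75.7% of 70 and 57.0% of 93, with median gains of 13 points at 6 h and 14 at 10 h. Of the GMP skipping junctions 11 were in both, 68.8% of 16 and 22.9% of 48. Skipping junctions of Luc7l, Nrg1 and Tra2a were listed at 10 h only.

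Gene levels give a second view of the same genes, from the same samples that chose the junctions, so their counts are a description. At 6 h limma called 12.6% of all CALM/AF10 genes (5.44% higher, 7.14% lower), and of 101 cassette genes 9 were higher and 12 lower. At 10 h it called 19.2% (10.5% higher, 8.64% lower), and of the 101 there were 21 higher and 14 lower. In GMP it called 44.0% of all genes at 6 h (24.1% higher, 19.9% lower), with 20 of 61 cassette genes higher and 21 lower. At 10 h the GMP share was 45.1% (23.7% higher, 21.5% lower), with 23 of the 61 higher and 17 lower. Between 10 h and 6 h it called 2.93% in CALM/AF10 cells (2.18% higher, 0.749% lower), with 6 of 101 cassette genes higher and 1 lower. In GMP that comparison gave 7.08% (3.21% higher, 3.87% lower), with 8 of 61 higher and 6 lower. The median log2 change of the cassette genes was near that of all genes, at 0.067 against 0.013 in CALM/AF10 cells at 10 h and 0.032 against -0.030 in GMP.

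Genes whose exon brought a stop moved in both directions. Of 13 CALM/AF10 genes that included an early stop more, 1 was higher (Nol12) and 2 lower at 6 h (Fam117a and Setd8) and at 10 h (Fam117a and Rps6ka3). That was 23.1% of the 13 at each time, against 12.6% and 19.2% of all genes. The 6 h call of Nol12 was lost without 0 h sample a (log2 change 0.32) or 6 h sample b (0.33). It was also lost without the filter on low values (limma adjusted p = 0.0550). Of 16 genes with decay predicted in the authors' deposited tables, 2 were higher and 5 lower at 6 h (12.6% of all genes in either direction), and 2 higher and 4 lower at 10 h (19.2% of all genes). Of 19 GMP genes that skipped a stop-carrying exon more, 7 were higher and 6 lower at 6 h, where 24.1% of all GMP genes were higher and 19.9% lower. At 10 h 7 were higher and 3 lower, where 23.7% of all GMP genes were higher and 21.5% lower. The change itself differed between cell types in 38.5% of all genes at 6 h (16.2% higher in CALM/AF10 cells, 22.2% lower) and 38.7% at 10 h (18.5% and 20.2%). Of 148 cassette genes 37 were higher and 41 lower at 6 h, and 39 and 40 at 10 h.

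**Figure D5:**
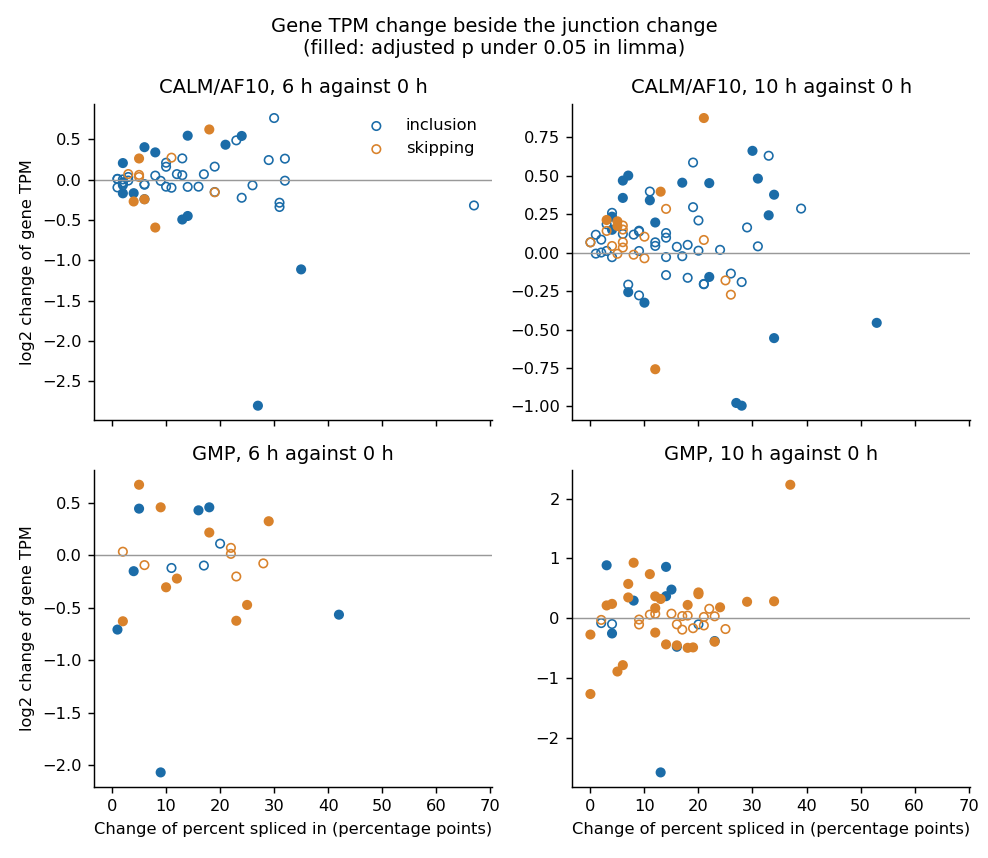
Change of gene TPM (log2, vertical) beside the gain in percent spliced in of its cassette junction (percentage points, horizontal; the largest per gene and class), 1 panel per comparison, with inclusion in blue, skipping in orange and filled points for adjusted p under 0.05 in limma. Points lie on both sides of 0 in every panel; Fam117a is the lowest blue point at 6 h in CALM/AF10 cells (-2.80) and at both times in GMP, and Nrg1 the highest orange point in GMP at 10 h (2.23).

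Of the fixed lists, only the splicing regulators held many cassette exons. Of 58 SR, hnRNP and CLK genes, 12 had a skipped exon and 2 an included exon in GMP, while 6 had an included and 2 a skipped exon in CALM/AF10 cells. Among all genes tested, 46 of 14246 had a skipped and 17 an included exon in GMP. In CALM/AF10 cells 74 of 12815 had an included and 27 a skipped one. At the gene level 8 of the 58 were lower and none higher in CALM/AF10 cells at 6 h (7.14% and 5.44% of all genes). At 10 h 8 were higher and 3 lower. In GMP 20 were higher and 18 lower at 6 h (24.1% and 19.9% of all genes), and 24 higher and 16 lower at 10 h. The list's median log2 change at 10 h in GMP was 0.095, against -0.030 for all genes. No cassette junction fell in the 39 core spliceosome genes or in the 21 factors of nonsense-mediated decay. Of all genes tested, 101 of 12815 in CALM/AF10 cells and 61 of 14246 in GMP had one. Lists this short can hold none at such shares, so their absence is not read as a result. At 10 h 23.7% of all genes were higher and 21.5% lower in GMP, and 10.5% higher and 8.64% lower in CALM/AF10 cells. Beside these shares, 25 of the 39 core genes were higher and 1 lower in GMP, and 10 higher and none lower in CALM/AF10 cells. Of the 21 decay factors 8 were higher and 3 lower in GMP, and 1 higher and none lower in CALM/AF10 cells. Of 22 cap-binding and decapping factors, Edc3 had an included exon and Eif4e2, which encodes the cap-binding protein 4EHP, a skipped one (29% to 39% at 10 h in the authors' deposited table), both in CALM/AF10 cells. At 10 h 3 of the 22 were higher and 4 lower in CALM/AF10 cells, and 7 higher and 3 lower in GMP, near the shares of all genes in the higher direction.

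The 4 AML lines show how these exons stand in libraries that did not choose them. For 94 exons both forms were annotated, listed and held at least 1 TPM together, and the share of the form with the exon was taken from transcript TPM. The 57 nt exon of Hnrnpd was present in 55.0%, 51.9% and 46.4% of CALM/AF10 #1, 41.5%, 45.9% and 42.7% of CALM/AF10 #2, 41.1%, 43.0% and 42.4% of MLL/AF9 #1, and 43.2%, 47.2% and 46.7% of MLL/AF9 #2. Only the library with 46.4% kept CALM/AF10 #1 from standing apart from the rest. The poison exon of Tra2a ranged more widely, at 65.1 ± 11.6% in CALM/AF10 #1, 30.7 ± 3.27% in CALM/AF10 #2, 24.4 ± 1.60% in MLL/AF9 #1 and 66.2 ± 8.42% in MLL/AF9 #2 (SD, n = 3 each). The CALM/AF10 lines did not overlap, with the highest library of CALM/AF10 #2 at 34.4% and the lowest of CALM/AF10 #1 at 53.9%, and no test was made. The 73 nt exon of Rbm39 stood at 44.6 ± 5.98%, 27.8 ± 4.59%, 29.3 ± 5.26% and 46.4 ± 19.9% in the same order. Both exons had their higher shares in the lines with fewer reads. Estimated reads per library were 8739673 to 11819510 in CALM/AF10 #1 and 9629415 to 12226344 in MLL/AF9 #2. They were 16687118 to 21128000 in CALM/AF10 #2 and 20401661 to 25194822 in MLL/AF9 #1. Line and depth cannot be told apart here, and the part of depth in these shares was not tested.

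Other exons were even or rare. The 120 nt exon of Hnrnpa2b1 lay between 73.9% and 84.9% in all 12 libraries, and the 118 nt exon of Prr13 between 20.8% and 30.8%. Snrnp70 held its 1360 nt exon at 0% to 8.06%, and Rsrc2 its 75 nt exon at 0% to 13.2%. The stop-carrying exon of Rps6ka3 ranged from 0% to 38.3% with a median of 13.0%, on low levels (8.81 TPM for both forms together), and by estimated counts its line means were only 0.542% to 1.60%. Tial1 held its 60 nt exon at 20.8 ± 2.13% in CALM/AF10 #1, and at 6.86 ± 4.17%, 10.0 ± 4.27% and 10.2 ± 3.86% in the others, in the order above. The lowest library of CALM/AF10 #1 (19.2%) was above the highest of the others (14.3%). Shares taken from estimated counts, which weigh long transcripts more, were lower for some exons and higher for others. By counts the line means were 16.5% to 20.6% for the 57 nt exon of Hnrnpd, while the 1049 nt exon of Mbnl1 went from 15.3% by TPM to 61.7% by counts in CALM/AF10 #1 and the 1360 nt exon of Snrnp70 from 4.24% to 12.7%.

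The exons were set beside all internal exons of protein-coding transcripts. Their median length was 104 nt for CALM/AF10 inclusion, 148 nt for CALM/AF10 skipping, 91 nt for GMP inclusion and 93.5 nt for GMP skipping, against 123 nt over the 180243 such exons of GENCODE M21. The share with a length that is a multiple of 3 was 45.7%, 42.9%, 47.4% and 48.1%, against 40.4%. For 161 of the 291 rows both flanking junctions of the exon were listed; elsewhere the far boundary was taken from an annotated exon. The authors' deposited tables call 113 of the 291 junctions not annotated, and 85 of these are in GENCODE M21.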

How the data were processed

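The authors deposited splice junction tables with percent spliced in as group means in percent, a log2 ratio of PSI odds, a q-value and mean raw read counts (a score here, since they are means). Per the labels, total RNA was sequenced in triplicate. STAR and mm10 are named in the submitters' processing notes; how junctions were called is not given in the sources used here. Gene TPM of the time course and transcript TPM and estimated counts of the 4 lines were deposited by the authors as well. TPM column names give only the group; the letters a, b and c stand for the samples by column position.

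Cassette rows were taken by the inclusion and skipping marks. Exon boundaries, frames and sequences came from GENCODE M21 on GRCm38. An early stop is an in-frame stop more than 50 bases before the last junction of the transcript. TPM was tested as log2(TPM + 1) with limma 3.58.1 (trend, R 4.3.3), all 3 times of a cell type in 1 fit, genes at 1 TPM or more in at least 3 samples, with Benjamini-Hochberg adjustment at 0.05 over all genes tested. Fold changes on that scale understate those of low genes. The difference between cell types was an interaction term in a fit of both. Of the cassette genes, 102 of 107 matched a TPM symbol in CALM/AF10 cells (101 tested) and 61 of 63 in GMP. The fit was tested on simulated data. Tables were read with Python 3.11.15 and pandas 2.3.3.

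Genes were named by a rule on q-value, size of change, listing at both times or in both cell types, predicted decay and the fixed gene lists, plus Dcps; exceptions are marked. The members and lists were chosen with earlier results of these data known. Alternatives were another pseudocount, no filter, median centring, quantile normalization, fits of only the groups compared, leaving out each sample, and a stricter limit on the PSI change. Some results are not reported here.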

Additional observations from a re-analysis of the deposited data

Results flagged for a closer look

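In 6 genes with a junction of the same cassette exon in both cell types, the change of TPM differed between CALM/AF10 cells and GMP by the interaction term in limma. Fam117a fell further in CALM/AF10 cells at 6 h (CALM/AF10 minus GMP log2 change -0.73, SE 0.13, adjusted p = 0.000483), from 17.5 to 20.1 TPM to 1.51 to 2.13 TPM. Prtn3, the proteinase 3 gene, had differences of 0.61 at 6 h (SE 0.07, adjusted p = 3.59e-06) and 0.78 at 10 h (SE 0.07, adjusted p = 2.42e-07). It is itself among the GMP markers, whose summed level was lower after RG3039 in GMP, and the part of that in the difference was not tested. Hnrnpd had differences of -0.54 at 6 h (SE 0.13, adjusted p = 0.00426) and -0.44 at 10 h (SE 0.13, adjusted p = 0.0168). Msantd3 had differences of 0.50 at 6 h (SE 0.12, adjusted p = 0.00344) and 0.35 at 10 h (SE 0.12, adjusted p = 0.0265), the latter lost under 6 alternatives with adjusted p from 0.0505 to 0.0771. Tmbim6 had differences of 0.22 at 6 h (SE 0.06, adjusted p = 0.01) and 0.46 at 10 h (SE 0.06, adjusted p = 2.72e-05). B2m, the light chain of MHC class I, had a difference of 0.34 at 10 h (SE 0.06, adjusted p = 0.000329). Eif4g1, a translation initiation factor gene with junctions of different exons in the 2 cell types, also differed, by -0.72 at 6 h (SE 0.07, adjusted p = 7.59e-07) and -0.74 at 10 h (SE 0.07, adjusted p = 5.68e-07). Such a difference was called for 38.5% of all genes at 6 h and 38.7% at 10 h.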

How the results depend on the processing

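With a PSI change of at least 10 points, inclusion and skipping junctions numbered 41 and 4 in CALM/AF10 cells at 6 h, 60 and 10 at 10 h, 8 and 10 in GMP at 6 h, and 9 and 33 at 10 h. Counted by gene and class, 5 GMP inclusion entries were shared by both times instead of 8. Calls between 10 h and 6 h depended most on the processing. In CALM/AF10 cells 376 genes were called, 188 without the filter and 140 in a fit of only the 2 groups; of the cassette genes 7 were called, 3 without the filter, 4 with quantile normalization and 1 in that fit. In GMP 1009 were called and 639 without the filter. Leaving out each sample gave 64 to 336 genes and 0 to 6 cassette genes in CALM/AF10 cells, and 371 to 1199 and 7 to 15 in GMP; the cassette genes called in CALM/AF10 cells at 10 h against 0 h went from 35 to between 23 and 31. The cause was not tested. The higher Ptbp1 level in GMP at 10 h turned to -0.052 with quantile normalization. All other counts stayed within 1.5 times under every alternative run. No paired analysis was possible because the columns carry no replicate numbers. Depth of the time course is unknown, and the junction tables hold group means of listed junctions only, so PSI has no error here and weak junctions rest on few reads.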
